A study of Mus musculus with 84 samples.

Results

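The liver response to BI 456906 at 10 nmol/kg was measured by RNA sequencing of whole liver tissue from 12 diet-induced obese mice, 6 that received the peptide and 6 that received vehicle. These are 12 of the 84 libraries of the series, which holds 42 libraries from liver and the remainder from epididymal fat. The members were chosen by their labels alone, as the liver libraries of the vehicle group and of the 10 nmol/kg group, and all genes that could be tested were described. BI 456906 is an acylated peptide and an agonist at 2 receptors, that of glucagon (GCGR) and that of glucagon-like peptide-1 (GLP-1R). All animals were male C57BL/6J mice on a diet with 60% of the energy from fat, were 22 weeks old when dosing began, and were housed singly. They were injected under the skin daily for 30 days with vehicle or with BI 456906 at 10 nmol/kg. The study randomised 11 mice to each group, and 6 of each group were sequenced. Other groups of the same liver experiment, used below for doses, received BI 456906 at 3, 20 or 30 nmol/kg or semaglutide, a GLP-1R agonist, at 20 or 100 nmol/kg. The libraries carry 1 number each, no number is shared between groups, and the labels name no batch of preparation. No pair-fed group was among these libraries, so that an effect of the peptide on liver cells and an effect of lower food intake or body weight cannot be told apart.

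Glucagon acts on hepatocytes through GCGR, a receptor that couples to Gs, raises cyclic AMP and activates protein kinase A. The kinase phosphorylates CREB and releases its CRTC coactivators, and the genes that follow include those for gluconeogenesis, amino acid uptake and ureagenesis. In fasting, glucagon and low insulin together oppose glycolysis and lipid synthesis. GLP-1R is expressed mainly in pancreas, gut and brain, and hepatocytes are generally held to lack it.

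The 12 libraries held 40479375 to 50434063 reads counted on genes (median 43899949), and 22.3 to 24.71% of the length-normalized transcript abundance (TPM) was held by the 10 highest genes of each library. Hepatocyte transcripts dominated. Albumin (Alb) was at 43236 to 54898 TPM in vehicle (median 45972) and 52405 to 60879 TPM at 10 nmol/kg (median 55940.2), and the 17 hepatocyte markers together held 99536 to 117704 TPM in vehicle and 115727 to 128827 TPM at 10 nmol/kg. Cpa1, an exocrine pancreas marker, was listed at 0 in all 12 libraries, and the fat marker Adipoq did not exceed 0.53 TPM. Blood transcripts were present, and Hba-a1, a haemoglobin gene, was at 139.8 to 244 TPM in vehicle and 152 to 326 TPM at 10 nmol/kg. In a principal component analysis the first component took 37.8% of the variance and the second 14.4%. The 6 treated libraries lay at 18.1 to 47.3 on the first component and 4 vehicle libraries at -48.9 to -39.2. The other 2 vehicle libraries, replicates 44 and 47, lay in between at -7.19 and -10.7. Results that moved most when the test was repeated without both are given with that value. These 2 were picked because they lay nearest the treated libraries in these same data. Leaving them out therefore tends to widen the differences from vehicle, and a larger value without them adds no support to a result. The tissue was sequenced whole, so fewer cells of a type and less RNA per cell of that type cannot be told apart.

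The treated and vehicle libraries also differed in how read density depended on transcript length. When the protein-coding genes were ranked by their longest annotated transcript and divided into 6 equal parts, the median log2 fold change (10 nmol/kg over vehicle) climbed from -0.19 in the shortest part (204 to 1814 bases) to 0.38 in the longest (5648 to 123179 bases). At a false discovery rate (FDR) of at most 0.05, 70 genes of the shortest part rose and 856 fell, against 1326 that rose and 80 that fell in the longest. The difference between the longest and the shortest part within a library ranged from -0.91 to -0.21 (log2) in vehicle and from -0.16 to 0.19 at 10 nmol/kg, and the ranges did not overlap. At 3, 20 and 30 nmol/kg it ranged from -0.50 to 0.05, from 0.10 to 0.18 and from 0.05 to 0.28. The paper states that the integrity number of all total RNA samples exceeded a set level, and gives no values for single libraries. The deposited names of the liver libraries all carry the same run identifier. Whether the difference over transcript length arose in the tissue or in the libraries was not tested. The fit was therefore repeated with the trend over length removed from each library, and the counts and values that moved most are given beside the first ones.

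**Figure D1:**
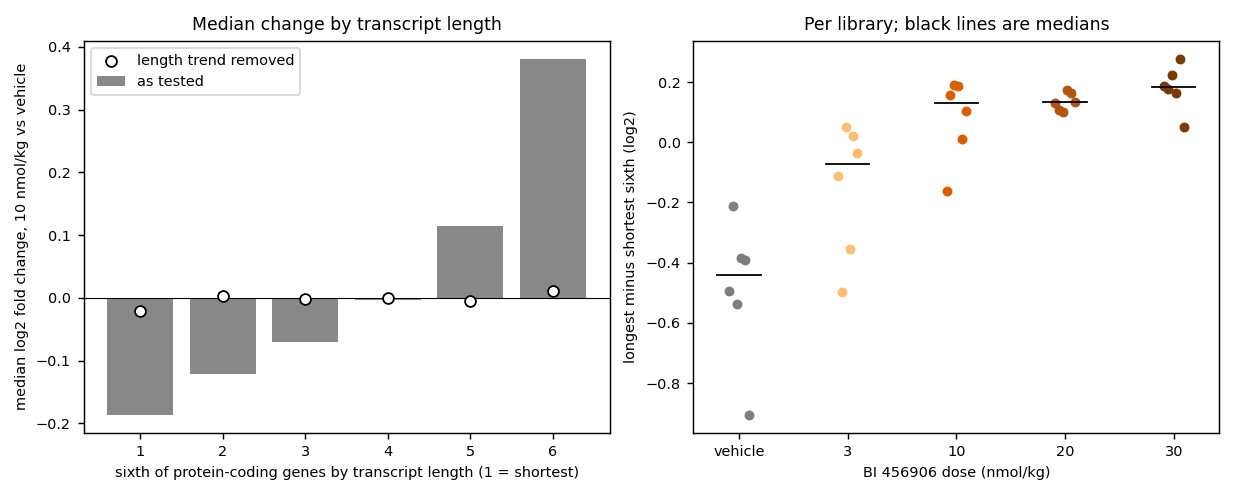
Left, median log2 fold change of protein-coding genes at 10 nmol/kg against vehicle in 6 parts of equal size by transcript length (bars), with the same median after the length trend was removed from each library (open circles). Right, the longest minus the shortest part in each library (log2) for vehicle and 4 doses of BI 456906 with black lines at the medians: the 6 vehicle libraries lie at -0.91 to -0.21 and the 6 at 10 nmol/kg at -0.16 to 0.19.

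Of 15964 genes tested with limma/voom, 3095 rose (19.4%) and 2891 fell (18.1%) at an FDR of at most 0.05. The changes were mostly small, with a median size of 0.42 on the log2 scale, and the median over all genes tested was -0.02. With the further requirement of a 2-fold difference (a log2 fold change of at least 1 in size), 371 genes were called higher (2.32%) and 279 lower (1.75%), together 650 genes, of which 418 were protein-coding. Only part of the called genes separated the animals completely. The TPM values of the 6 treated mice lay entirely above those of the 6 vehicle mice for 151 of the called genes and entirely below for 97, where over all genes tested 10.8% lay entirely above and 2.83% entirely below. With these 2 groups fitted alone, 258 genes were called higher and 227 lower among the 14946 genes tested in that fit. Without vehicle replicates 44 and 47, 529 genes were called higher and 460 lower among the 16250 genes tested in that fit. With the length trend removed, 336 were called higher, of which 283 were shared with the first count, and 241 lower, of which 210 were shared. At an FDR of at most 0.05 alone, 2333 genes rose (14.6%) and 2212 fell (13.9%) with the length trend removed. Without vehicle replicates 44 and 47, 3326 rose (20.8%) and 3104 fell (19.4%), counted over the 15964 genes of the first fit. Group counts under either alternative are to be read beside these shares.

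**Figure D2:**
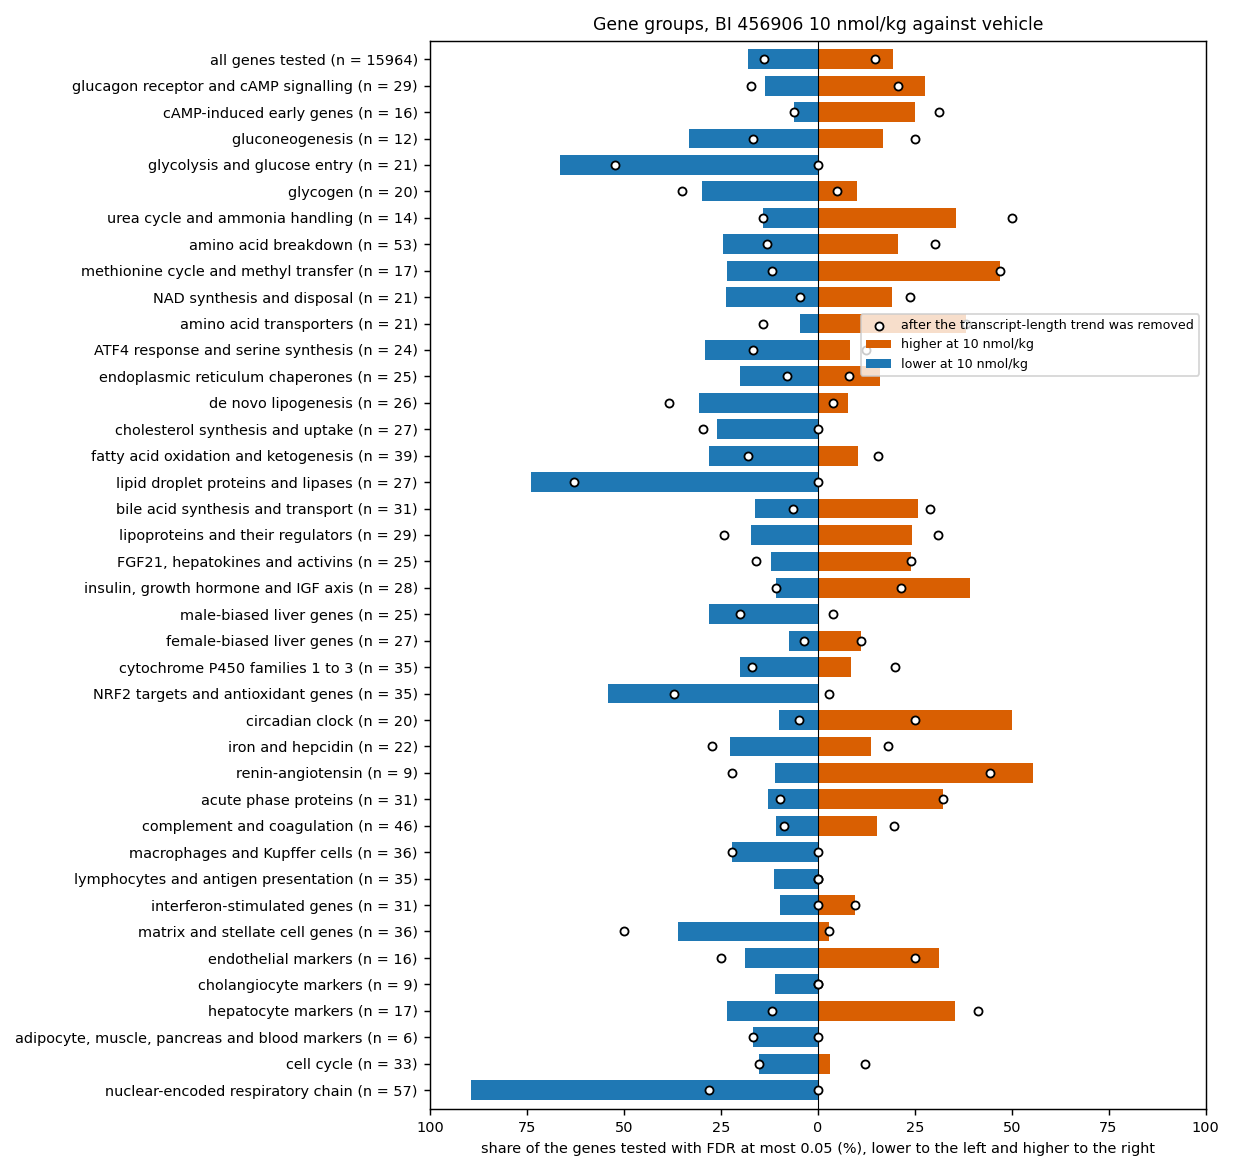
Share of the tested members of each gene group that rose (to the right) or fell (to the left) at an FDR of at most 0.05 at 10 nmol/kg against vehicle, in percent, with the number tested beside each name and all 15964 genes in the top row. Open circles give the shares after the trend over transcript length was removed, and the respiratory chain moves from 51 lower genes of 57 to 16.

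The receptor itself was near its vehicle level. Gcgr was at 216 to 229.9 TPM in vehicle (median 227) and 191 to 233 TPM at 10 nmol/kg (median 218), and its log2 fold change of -0.17 ± 0.07 (SE, FDR 0.0457) passed the FDR threshold but not the fold threshold. That call was lost when any 1 of 9 of the 12 libraries was left out, all but vehicle replicate 45 and treated replicates 55 and 58 (FDR 0.0511 to 0.16). It was also lost without vehicle replicates 44 and 47 (FDR 0.168), and with the length trend removed (FDR 0.479). Glp1r did not exceed 0.07 TPM in any of the 12 libraries and was not tested. Of the genes of glucagon receptor and cyclic AMP signalling, 8 of 29 tested rose and 4 fell (median log2 fold change 0.16). After removal of the length trend 6 rose and 5 fell (median 0.10). Among those that rose was Creb1, the transcription factor that binds cyclic AMP response elements, at 1.63 to 2.58 TPM in vehicle (median 2.21) and 4 to 6.66 TPM at 10 nmol/kg (median 5.58), a log2 difference of 0.73 ± 0.09 (SE, FDR 1.33e-07). Pde3b, a phosphodiesterase that degrades cyclic AMP, was at 10.2 to 17.9 TPM in vehicle (median 13.9) and 23.4 to 24.9 TPM at 10 nmol/kg (median 24.2), a change of 0.67 ± 0.09 (SE, FDR 2.12e-07). For both genes the 6 treated values lay above all vehicle values, and the changes were 0.30 and 0.36 once the length trend was removed. Gnas, which encodes the Gs subunit, fell by 0.29 on the log2 scale (FDR 1.28e-06) with overlapping values.

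The genes that glucagon and cyclic AMP are known to induce in hepatocytes moved unevenly. Of 16 such genes tested, 4 rose and 1 fell (median log2 fold change 0.17). Pck1, which encodes the cytosolic enzyme that commits oxaloacetate to gluconeogenesis, was at 632 to 1783 TPM in vehicle (median 933) and 2112 to 3122 TPM at 10 nmol/kg (median 2464). All 6 treated values exceeded the highest vehicle value, which belonged to replicate 47, and the log2 fold change was 1.20 ± 0.17 (SE, FDR 7.53e-07). Ppargc1a, the coactivator PGC-1α of the fasting response, was at 1.07 to 1.84 TPM in vehicle (median 1.63) and 3.34 to 5.22 TPM at 10 nmol/kg (median 4.13), a change of 1.15 ± 0.14 (SE, FDR 1.87e-07) with no overlap. Tat, the first enzyme of tyrosine breakdown, was at 285 to 548 TPM in vehicle (median 345) and 947 to 2072 TPM at 10 nmol/kg (median 1142), a change of 1.65 ± 0.25 (SE, FDR 2.83e-06) with no overlap. Per1, a period gene of the circadian clock, was at 5.52 to 16.4 TPM in vehicle (median 7.79) and 17.6 to 26.9 TPM at 10 nmol/kg (median 24), a change of 1.28 ± 0.18 (SE, FDR 1.28e-06) without overlap. By contrast, G6pc, the phosphatase that releases glucose, was at 229 to 372 TPM in vehicle (median 302) and 244 to 410.5 TPM at 10 nmol/kg (median 278) with FDR 0.656, and the kinase gene Sik1 was at 5.05 to 9.15 TPM in vehicle (median 5.51) and 6.2 to 13.6 TPM at 10 nmol/kg (median 8.21) with FDR 0.391.

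Promoters were examined for short motifs, since CREB and ATF4, the factor of the amino acid response, have well known binding letters. RefSeq promoters (GRCm38.p6, 250 bases before to 50 after the start) were available for 11411 of the tested symbols. The cyclic AMP response element TGACGTCA, read on both strands, was in 3.37% of them, in 9 of 176 promoters of genes called higher (5.11%) and in 2 of 165 of genes called lower (1.21%). The looser form TNACGTCA, which includes the first, was in 5.34%, in 8.52% and in 2.42% of these. The ATF4 letters TTGCATCA were in 0.797% of all promoters, in 2 of 176 called higher (1.14%) and in 2 of 165 called lower (1.21%). These are shares of letters and were not tested. Of the 16 cyclic AMP induced early genes, 13 had a promoter here and 3 of these (Atf3, Dusp1 and Pck1) held the looser form, while Ppargc1a, Tat and Per1, the others that rose, did not hold it in this window. The promoter of Pck1 is printed because the gene rose and holds the looser cyclic AMP response element, in capitals, from 93 bases before the start (chr2:173152823-173153122, plus strand):
Pck1: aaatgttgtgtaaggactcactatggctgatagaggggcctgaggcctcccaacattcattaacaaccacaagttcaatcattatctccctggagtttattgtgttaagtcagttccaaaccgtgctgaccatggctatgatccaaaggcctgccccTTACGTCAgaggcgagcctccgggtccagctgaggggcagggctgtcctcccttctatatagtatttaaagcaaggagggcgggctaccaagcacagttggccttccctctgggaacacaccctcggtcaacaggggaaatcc
Inhbe and Cyp3a11 also held the ATF4 letters and did not pass in the first fit. Inhbe fell with the length trend removed (log2 fold change -0.50, FDR 0.00968). Stretches of 30 bases that hold the ATF4 letters, in capitals, are set beside it, from Herpud1 (chr8:94386306-94386335, plus strand), Fgf21 (chr7:45615611-45615640, minus strand) and G6pc (chr11:101367567-101367596, plus strand), since the first gene rose and the other 2 did not pass the test:
Herpud1: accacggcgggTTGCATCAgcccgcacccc
Fgf21: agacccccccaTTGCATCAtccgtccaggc
G6pc: cctgaacatgtTTGCATCAacctactgatg

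**Figure D3:**
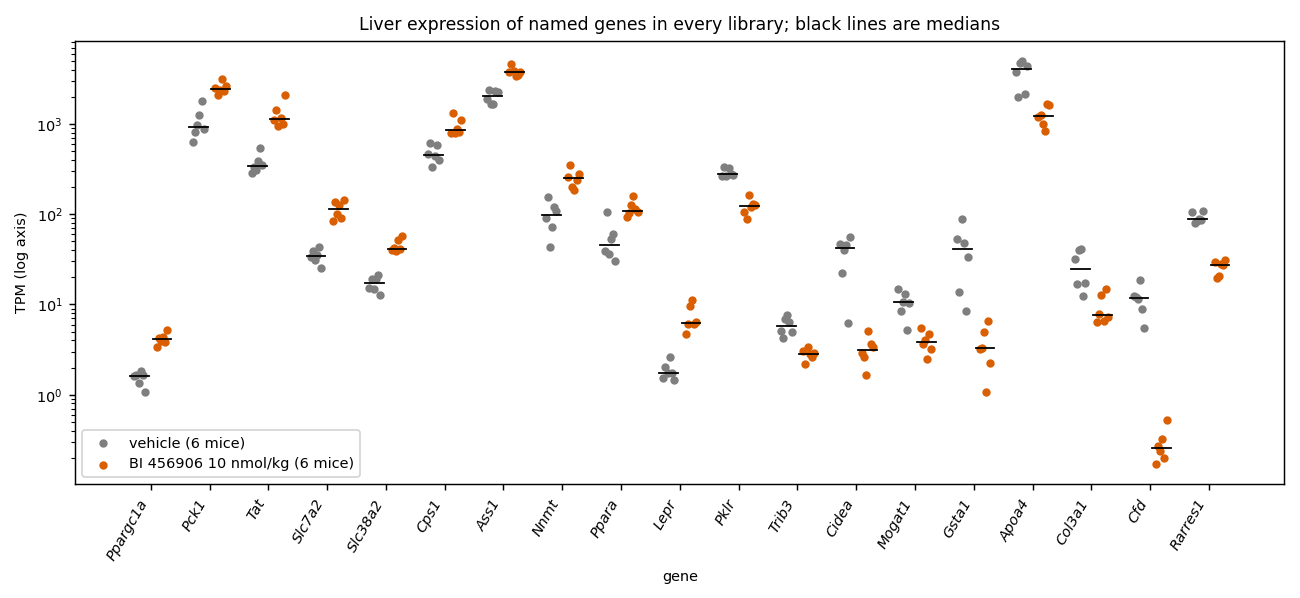
TPM (log axis) of 19 genes in each of the 6 vehicle libraries (grey) and the 6 libraries at 10 nmol/kg (orange), with black lines at the medians. Pck1, Tat and Slc7a2 lie entirely above vehicle and Pklr, Trib3 and Cfd entirely below, whereas the lowest vehicle values of Mogat1 and Col3a1 reach into the treated range.

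Genes of glucose handling did not move as a block. Of the gluconeogenesis genes, 2 of 12 tested rose and 4 fell (median log2 fold change -0.09). With the length trend removed 3 rose and 2 fell (median -0.02). Fbp1, fructose bisphosphatase, did not pass (FDR 0.572). Pcx, pyruvate carboxylase, fell from a median of 333 to 258 TPM, a log2 fold change of -0.49 ± 0.08 (SE, FDR 5.33e-06), and its treated values lay below all vehicle values. For glycolysis and glucose entry, 0 of 21 tested rose and 14 fell (median log2 fold change -0.28), and after removal of the length trend 0 rose and 11 fell (median -0.20). The largest fall among the named members was that of Pklr, the pyruvate kinase of hepatocytes, at 263 to 333 TPM in vehicle (median 278) and 87.8 to 165 TPM at 10 nmol/kg (median 124). Its log2 fold change was -1.46 ± 0.20 (SE, FDR 6e-07), and the highest treated value was below the lowest vehicle value. Gpi1 and Eno1, which encode an isomerase and an enolase of the pathway, fell by 0.42 (FDR 2.44e-06) and by 0.41 (FDR 8.58e-06) on the log2 scale. For glycogen metabolism, 2 of 20 tested rose and 6 fell (median log2 fold change -0.07), and with the length trend removed 1 rose and 7 fell (median -0.08). Gbe1, the branching enzyme, was at 86.1 to 99.3 TPM in vehicle (median 94.3) and 58.8 to 79.9 TPM at 10 nmol/kg (median 62.7), a change of -0.58 ± 0.10 (SE, FDR 2.14e-05) without overlap. Ugp2, which makes the glucose donor, changed by -0.60 ± 0.14 (SE, FDR 0.00106), and its highest treated value was nearly equal to its lowest vehicle value. The phosphorylase Pygl, which breaks glycogen down, did not pass (FDR 0.095).

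Nitrogen disposal genes rose in part. In the urea cycle and ammonia handling group, 5 of 14 tested rose and 2 fell (median log2 fold change 0.22), and with the length trend removed 7 rose and 2 fell (median 0.26). Cps1, which fixes ammonia in mitochondria, was at 331 to 623 TPM in vehicle (median 450.1) and 791 to 1311 TPM at 10 nmol/kg (median 856), a change of 0.90 ± 0.19 (SE, FDR 0.000292). Ass1, the argininosuccinate synthase, was at 1668 to 2403 TPM in vehicle (median 2066) and 3379 to 4678 TPM at 10 nmol/kg (median 3785), a change of 0.80 ± 0.14 (SE, FDR 2.4e-05). The treated values of both genes lay above all vehicle values. Gls2, the liver glutaminase, changed by 0.59 ± 0.12 (SE, FDR 0.000158) and was likewise above vehicle throughout. Otc and Asl, which act between and after these enzymes, had log2 fold changes of -0.06 (FDR 0.638) and 0.25 (FDR 0.245), and Arg1 was at 866 to 1164 TPM in vehicle (median 926) and 1055 to 1655 TPM at 10 nmol/kg (median 1296) with FDR 0.0824, or 0.0128 with the length trend removed. Rhbg, an ammonium channel of pericentral hepatocytes, changed by -1.36 ± 0.24 (SE, FDR 2.61e-05) on the log2 scale and did not overlap vehicle.

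Amino acid uptake and breakdown showed the following. Among amino acid transporters, 8 of 21 tested rose and 1 fell (median log2 fold change 0.16), and with the length trend removed 8 rose and 3 fell (median 0.05). Slc7a2, which carries arginine and other cationic amino acids into hepatocytes, was at 25.5 to 43.5 TPM in vehicle (median 34.2) and 84.7 to 142 TPM at 10 nmol/kg (median 114), and its log2 fold change of 1.57 ± 0.18 (SE, FDR 3.91e-08) was 1.17 with the length trend removed. Slc38a2, a carrier of small neutral amino acids, was at 12.8 to 21.2 TPM in vehicle (median 17.2) and 39 to 57.1 TPM at 10 nmol/kg (median 41.6), a change of 1.30 ± 0.17 (SE, FDR 3e-07), and Slc38a4 changed by 0.36 ± 0.06 (SE, FDR 7.85e-06). The treated values of all 3 carriers lay above vehicle. Of the amino acid breakdown genes, 11 of 53 tested rose and 13 fell (median log2 fold change 0.02), and 16 rose and 7 fell (median 0.10) after removal of the length trend, so that the balance of rises and falls depended on it. Sds, serine dehydratase, was at 117 to 179 TPM in vehicle (median 145) and 151 to 376 TPM at 10 nmol/kg (median 227). Its change was 0.62 ± 0.24 (SE, FDR 0.0344). That call was lost without either vehicle replicate 43, 44 or 45 or treated replicate 56, 59 or 60 (FDR 0.0507 to 0.104). It was also lost without vehicle replicates 44 and 47 together (FDR 0.105). Bckdhb, of branched-chain amino acid oxidation, fell by 0.37 (FDR 1.37e-05), and by 0.21 with the length trend removed.

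In the methionine cycle and methyl transfer, 8 of 17 tested rose and 4 fell (median log2 fold change 0.28), and with the length trend removed 8 rose and 2 fell (median 0.14). Nnmt, which methylates nicotinamide, was at 43.9 to 155 TPM in vehicle (median 99.3) and 185 to 354 TPM at 10 nmol/kg (median 250.2), a change of 1.31 ± 0.28 (SE, FDR 0.000317) without overlap. Cbs, which directs homocysteine to cysteine, was at 123 to 162 TPM in vehicle (median 146) and 240 to 312 TPM at 10 nmol/kg (median 259), a change of 0.77 ± 0.10 (SE, FDR 2.71e-07) that was 0.49 with the length trend removed. The methyltransferase Gnmt changed by 0.32 ± 0.11 (SE, FDR 0.0243), or 0.50 with the length trend removed, and Mat1a, which makes S-adenosylmethionine, by 0.37 ± 0.12 (SE, FDR 0.0166). Both had treated values above all vehicle values, and both calls were lost without vehicle replicate 45 or treated replicate 56, and that of Gnmt also without vehicle replicate 43 (FDR 0.0507 to 0.0937 over the 5 fits). For NAD synthesis and disposal, 4 of 21 tested rose and 5 fell (median log2 fold change -0.04), and with the length trend removed 5 rose and 1 fell (median 0.02). Without vehicle replicates 44 and 47, 2 genes of the methionine group and 3 of the NAD group fell. Acmsd, which diverts tryptophan carbon from NAD synthesis, was at 2.55 to 5.64 TPM in vehicle (median 2.94) and 4.92 to 12 TPM at 10 nmol/kg (median 8.27), a change of 1.20 ± 0.27 (SE, FDR 0.000606) with overlapping values, and Nampt of the salvage route did not pass (FDR 0.752).

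Genes of the ATF4 response moved both ways, and their excess of falls shrank with the length trend removed. Of the genes of the ATF4 response and serine synthesis, 2 of 24 tested rose and 7 fell (median log2 fold change 0.02), and with the length trend removed 3 rose and 4 fell (median 0.07). Trib3, a pseudokinase induced by ATF4, was at 4.27 to 7.72 TPM in vehicle (median 5.76) and 2.18 to 3.35 TPM at 10 nmol/kg (median 2.84), a log2 difference of -1.16 ± 0.14 (SE, FDR 1.42e-07) with no overlap. Aldh1l2, a mitochondrial folate enzyme, changed by 1.47 ± 0.25 (SE, FDR 1.4e-05) at medians of 0.055 and 0.24 TPM. Asns, asparagine synthetase, was at 0.1 to 0.98 TPM in vehicle (median 0.275) and 0.24 to 0.98 TPM at 10 nmol/kg (median 0.36) with FDR 0.902. Among endoplasmic reticulum chaperones and degradation factors, 4 of 25 tested rose and 5 fell (median log2 fold change -0.05), and 2 rose and 2 fell (median -0.03) without the length trend, and 3 fell without vehicle replicates 44 and 47. Herpud1, a factor of protein degradation at the endoplasmic reticulum, was at 191 to 303 TPM in vehicle (median 218) and 309 to 530 TPM at 10 nmol/kg (median 368), a change of 0.64 ± 0.14 (SE, FDR 0.000264) without overlap, whereas the chaperone Hspa5 did not pass (FDR 0.832).

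Lipid droplet genes had the largest share of falls among the lipid groups. Of the lipid droplet proteins and lipases, 0 of 27 tested rose and 20 fell (median log2 fold change -0.42), and with the length trend removed 0 rose and 17 fell (median -0.35). Cidea, which enlarges lipid droplets and is scarce in lean liver, was at 6.18 to 55.6 TPM in vehicle (median 42.5) and 1.67 to 5.06 TPM at 10 nmol/kg (median 3.12), a change of -3.39 ± 0.62 (SE, FDR 4.53e-05), or -4.02 without vehicle replicates 44 and 47. The 2 lowest vehicle values, 22.3 and 6.18 TPM, belonged to replicates 44 and 47, and the highest treated value was 5.06 TPM. Cidec, a related droplet protein, was at 33 to 165 TPM in vehicle (median 138) and 14.9 to 39.6 TPM at 10 nmol/kg (median 27.6), a change of -2.09 ± 0.50 (SE, FDR 0.00102), or -2.69 without these replicates. Mogat1, which makes diacylglycerol, was at 5.21 to 14.9 TPM in vehicle (median 10.6) and 2.48 to 5.54 TPM at 10 nmol/kg (median 3.83), a change of -1.58 ± 0.24 (SE, FDR 3.42e-06). Fitm1, which partitions triglyceride into droplets, was at 84.5 to 104 TPM in vehicle (median 99.6) and 42.8 to 52.1 TPM at 10 nmol/kg (median 48.8), a change of -1.12 ± 0.17 (SE, FDR 2.99e-06) without overlap. Cd36, a fatty acid carrier, changed by -0.76 ± 0.30 (SE, FDR 0.04), and that call was lost without any 1 of vehicle replicates 43, 45, 46 and 48 and treated replicates 56, 58 and 60 (FDR 0.0567 to 0.143). Plin2, the main coat protein of droplets in hepatocytes, was at 697 to 912 TPM in vehicle (median 777) and 496 to 905 TPM at 10 nmol/kg (median 686) and did not pass (FDR 0.204).

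Genes of lipid synthesis fell in smaller number. For de novo lipogenesis, 2 of 26 tested rose and 8 fell (median log2 fold change -0.15), and with the length trend removed 1 rose and 10 fell (median -0.28), and without vehicle replicates 44 and 47, 2 rose and 5 fell. Tkt, transketolase of the pentose phosphate pathway, was at 67.2 to 88.7 TPM in vehicle (median 78.2) and 45.7 to 58.2 TPM at 10 nmol/kg (median 48.8), a change of -0.73 ± 0.08 (SE, FDR 3.19e-08), and Pgd of the same pathway changed by -0.57 ± 0.09 (SE, FDR 6.5e-06). Fasn, the fatty acid synthase, was at 113 to 207 TPM in vehicle (median 146) and 70.6 to 168 TPM at 10 nmol/kg (median 82.1) and its log2 difference was -0.32 ± 0.18 (SE, FDR 0.171), but -0.81 (FDR 0.000729) with the length trend removed, and -0.49 (FDR 0.0195) without treated replicate 57. Scd1, the desaturase, was at 1039 to 1800.2 TPM in vehicle (median 1689.9) and 1337 to 2768 TPM at 10 nmol/kg (median 1945) with FDR 0.736, and Srebf1, the lipogenic factor, gave FDR 0.0895. For cholesterol synthesis and uptake, 0 of 27 tested rose and 7 fell (median log2 fold change -0.28). Fdps, of the mevalonate pathway, was at 139.8 to 383 TPM in vehicle (median 242) and 71.3 to 175 TPM at 10 nmol/kg (median 97.3), a change of -1.39 ± 0.29 (SE, FDR 0.000202) with overlapping values.

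**Figure D4:**
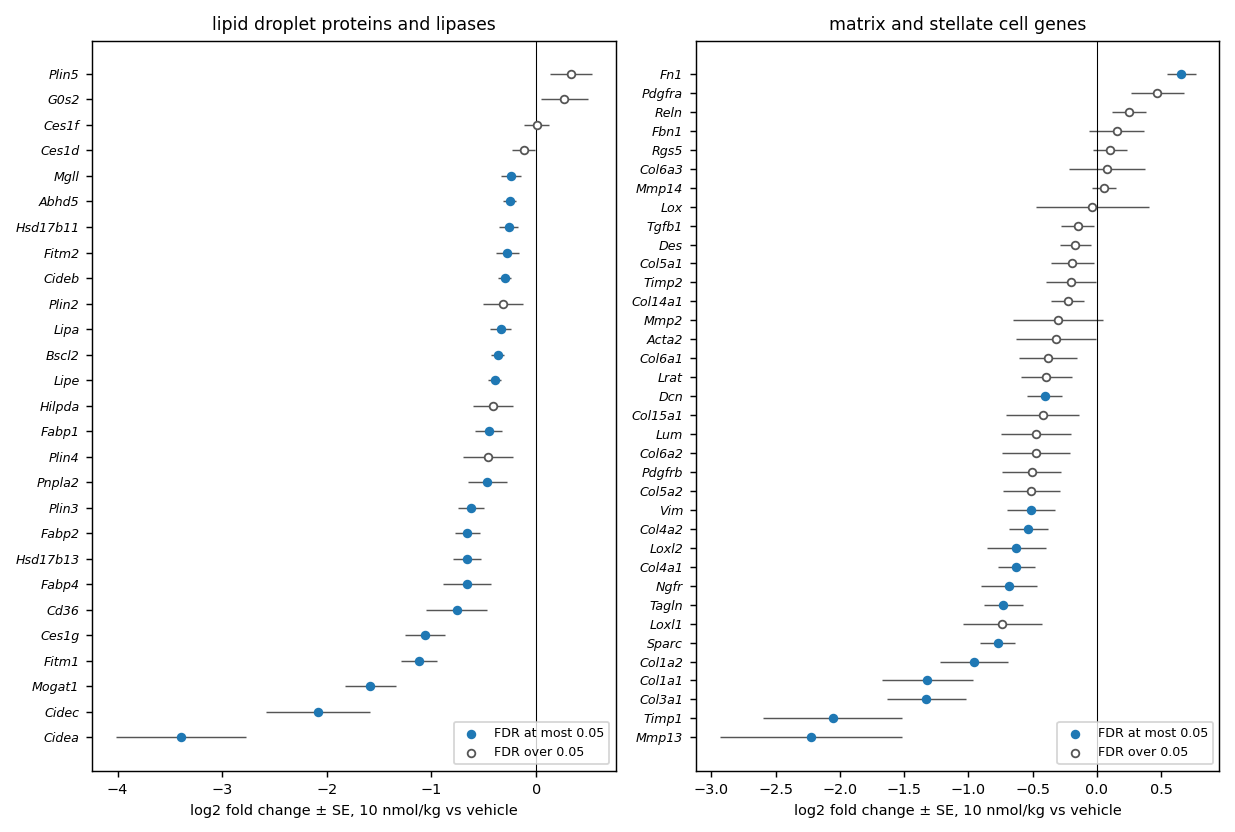
Log2 fold change ± SE at 10 nmol/kg against vehicle for the 27 lipid droplet genes (left) and the 36 matrix and stellate cell genes (right) tested, filled where the FDR was at most 0.05. Of the droplet genes, 20 fell and 0 rose, and of the matrix genes 13 fell and 1, Fn1, rose.

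Fatty acid oxidation genes moved in both directions. For fatty acid oxidation and ketogenesis, 4 of 39 tested rose and 11 fell (median log2 fold change -0.11). With the length trend removed 6 rose and 7 fell (median -0.05), where 14.6% of all genes tested rose and 13.9% fell. Ppara, the nuclear receptor that induces these genes, was at 30.4 to 105 TPM in vehicle (median 46.2) and 93.3 to 159 TPM at 10 nmol/kg (median 110.2), and its log2 fold change of 1.44 ± 0.26 (SE, FDR 4.08e-05) became 1.92 without vehicle replicates 44 and 47, of which replicate 44 held the highest vehicle value. Acaa1a, a peroxisomal thiolase, fell by 0.48 on the log2 scale (FDR 3.51e-06) without overlap. Cpt1a, the gate of mitochondrial oxidation, did not pass (FDR 0.463). Among nuclear-encoded respiratory chain genes, 0 of 57 tested rose and 51 fell (median log2 fold change -0.25). Their median transcript length was 1232 bases against 3101 over all genes tested, and with the length trend removed 0 rose and 16 fell (median -0.09). The falls of Cox4i1 and Ndufs1, subunits of complexes IV and I, did not pass in that fit (FDR 0.163 and 0.0705), whereas those of Ndufa10 and Atp5a1 did (-0.22, FDR 0.00272, and -0.16, FDR 0.0331).

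For bile acid synthesis and transport, 8 of 31 tested rose and 5 fell (median log2 fold change -0.04), and with the length trend removed 9 rose and 2 fell (median 0.05). Cyp7a1, the rate-limiting enzyme of bile acid synthesis, was at 27.2 to 81.6 TPM in vehicle (median 50) and 23.9 to 88.9 TPM at 10 nmol/kg (median 74.5) with FDR 0.997. Cyp8b1, which directs synthesis to cholic acid, was at 569.9 to 782 TPM in vehicle (median 658) and 465 to 542 TPM at 10 nmol/kg (median 503), a change of -0.51 ± 0.14 (SE, FDR 0.00464) without overlap. Cyp39a1, an oxysterol hydroxylase, changed by 0.98 ± 0.18 (SE, FDR 4.01e-05), also without overlap. Among lipoproteins and their regulators, 7 of 29 tested rose and 5 fell (median log2 fold change -0.01). Apoa4, an apolipoprotein that follows liver triglyceride in mice, was at 1973 to 5002 TPM in vehicle (median 4073) and 827 to 1646 TPM at 10 nmol/kg (median 1216), a change of -1.61 ± 0.29 (SE, FDR 3.83e-05) without overlap, and its 2 lowest vehicle values were those of replicates 44 and 47. Abca1, which loads cholesterol onto high-density lipoprotein, changed by 0.86 ± 0.15 (SE, FDR 1.33e-05), or 0.37 with the length trend removed. Lpl, the lipoprotein lipase, was at 3.23 to 12.3 TPM in vehicle (median 7.97) and 2.67 to 4.74 TPM at 10 nmol/kg (median 3.79), a change of -1.03 ± 0.27 (SE, FDR 0.00233).

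Secreted factors and hormone signalling gave mixed counts. Among FGF21, hepatokines and activins, 6 of 25 tested rose and 3 fell (median log2 fold change 0.00). Fgf21, the fasting hormone, was at 16.1 to 32.6 TPM in vehicle (median 22.9) and 23.2 to 32.7 TPM at 10 nmol/kg (median 27.8) and did not pass (FDR 0.748). Enho, which encodes adropin, was at 4.15 to 8.66 TPM in vehicle (median 5.58) and 12.9 to 37.5 TPM at 10 nmol/kg (median 17.3), a change of 1.61 ± 0.32 (SE, FDR 0.00012), and Hgf, the hepatocyte growth factor, was at 1.16 to 2.97 TPM in vehicle (median 2.69) and 5.05 to 9.1 TPM at 10 nmol/kg (median 6.73), a change of 1.42 ± 0.18 (SE, FDR 2.94e-07). Treated values of both lay above all vehicle values. In the insulin, growth hormone and IGF axis, 11 of 28 tested rose and 3 fell (median log2 fold change 0.32), and with the length trend removed 6 rose and 3 fell (median 0.09). Lepr, the leptin receptor gene, was at 1.46 to 2.59 TPM in vehicle (median 1.75) and 4.69 to 11.3 TPM at 10 nmol/kg (median 6.24), a change of 1.83 ± 0.33 (SE, FDR 2.92e-05) without overlap. Igfbp2, a binding protein of insulin-like growth factors, changed by 0.88 ± 0.17 (SE, FDR 7.45e-05) without overlap. Insr, the insulin receptor, changed by 0.72 ± 0.10 (SE, FDR 1.15e-06), or 0.25 with the length trend removed, although its median TPM went from 17.3 to 39.2. Igf1 and Ghr did not pass (FDR 0.312 and 0.798).

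Of the genes that male mouse liver expresses above female liver, 0 of 25 tested rose and 7 fell (median log2 fold change -0.22). Without vehicle replicates 44 and 47, 2 rose and 3 fell, and with the length trend removed 1 rose and 5 fell (median -0.09). Cyp4a12a, a fatty acid hydroxylase of male liver, was at 40.7 to 69.2 TPM in vehicle (median 56.7) and 1.79 to 16.2 TPM at 10 nmol/kg (median 11.3), a change of -2.87 ± 0.53 (SE, FDR 4.28e-05) without overlap. Its near copy Cyp4a12b shares sequence with it, and reads may be divided between them. Selenbp2 changed by -1.94 ± 0.67 (SE, FDR 0.0201), a call lost without replicates 44 and 47 (FDR 0.0716). Of female-biased genes, 3 of 27 tested rose and 2 fell (median log2 fold change 0.12), and with the length trend removed 3 rose and 1 fell (median 0.13). Among cytochrome P450 families 1 to 3, 3 of 35 tested rose and 7 fell (median log2 fold change -0.15), and with the length trend removed 7 rose and 6 fell (median -0.01). Without vehicle replicates 44 and 47, 6 rose and 7 fell. Cyp2f2, a periportal enzyme, was at 532 to 631 TPM in vehicle (median 602) and 290 to 454 TPM at 10 nmol/kg (median 374), a change of -0.80 ± 0.17 (SE, FDR 0.000187) without overlap, and Cyp3a13 changed by 0.70 ± 0.12 (SE, FDR 8.39e-06), also without overlap. Cyp3a11 and Cyp2b10, which follow the xenobiotic receptors, did not pass (FDR 0.203 and 0.548).

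The antioxidant genes that passed the test were lower. Of the NRF2 targets and antioxidant genes, 0 of 35 tested rose and 19 fell (median log2 fold change -0.26), and with the length trend removed 1 rose and 13 fell (median -0.19). Gsta1, a glutathione S-transferase, was at 8.54 to 88 TPM in vehicle (median 41.3) and 1.08 to 6.51 TPM at 10 nmol/kg (median 3.27), a change of -3.57 ± 0.63 (SE, FDR 2.57e-05) that was -4.28 without vehicle replicates 44 and 47, which held its 2 lowest vehicle values. It belongs to a family of near-identical genes, so its reads may be shared. Gpx1, a glutathione peroxidase, was at 3052 to 3875 TPM in vehicle (median 3187) and 2411 to 2803 TPM at 10 nmol/kg (median 2513), a change of -0.51 ± 0.08 (SE, FDR 2.37e-06) without overlap, or -0.34 with the length trend removed. Nqo1, an often used reporter of NRF2, changed by -0.65 ± 0.19 (SE, FDR 0.00534) with overlapping values, and Gclc, of glutathione synthesis, did not pass (FDR 0.551). Of the circadian clock genes, 10 of 20 tested rose and 2 fell (median log2 fold change 0.23), and with the length trend removed 5 rose and 1 fell (median 0.18). Clock itself was at 3.65 to 5.4 TPM in vehicle (median 4.6) and 6.69 to 10.7 TPM at 10 nmol/kg (median 9.27), a change of 0.78 ± 0.11 (SE, FDR 1.15e-06), or 0.30 with the length trend removed. Arntl and Nr1d1 did not pass (FDR 0.057 and 0.527). The part of the time of day was not tested.

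Inflammation genes moved in both directions. Of the acute phase proteins, 10 of 31 tested rose and 4 fell (median log2 fold change 0.12). Orm3, an orosomucoid, was at 5.87 to 10.2 TPM in vehicle (median 8.52) and 0.23 to 5.72 TPM at 10 nmol/kg (median 2.65), a change of -2.10 ± 0.41 (SE, FDR 8.5e-05) without overlap, with near copies Orm1 and Orm2. Itih4, an inter-alpha-trypsin inhibitor chain, was at 847 to 1108 TPM in vehicle (median 874) and 1338 to 1708 TPM at 10 nmol/kg (median 1431), a change of 0.65 ± 0.13 (SE, FDR 0.000206) without overlap. Saa1, serum amyloid A, did not pass (FDR 0.933). Of the macrophage and Kupffer cell genes, 0 of 36 tested rose and 8 fell (median log2 fold change -0.28), and without vehicle replicates 44 and 47 0 rose and 15 fell (median -0.44). With the length trend removed 0 rose and 8 fell (median -0.11). Ccl2, which attracts monocytes, was at 2.06 to 7.36 TPM in vehicle (median 4.54) and 0.61 to 1.19 TPM at 10 nmol/kg (median 0.835), a change of -2.37 ± 0.46 (SE, FDR 8.76e-05) without overlap. Trem2, a receptor of lipid-associated macrophages, gave -0.84 ± 0.37 (SE, FDR 0.0672), or -1.36 (FDR 0.00143) without these replicates. The Kupffer cell genes Clec4f and Timd4 did not pass (FDR 0.502 and 0.219). The summed level of the macrophage group was 927 to 1666 TPM in vehicle and 964 to 1711 TPM at 10 nmol/kg. Of the lymphocyte and antigen presentation genes, 0 of 35 tested rose and 4 fell (median log2 fold change -0.19), and none passed with the length trend removed.

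Part of the matrix genes fell. Of the matrix and stellate cell genes, 1 of 36 tested rose and 13 fell (median log2 fold change -0.41). With the length trend removed 1 rose and 18 fell (median -0.55), and without vehicle replicates 44 and 47, 1 rose and 20 fell (median -0.63). Col3a1, a fibrillar collagen, was at 12.5 to 41 TPM in vehicle (median 24.6) and 6.41 to 14.9 TPM at 10 nmol/kg (median 7.63), a change of -1.33 ± 0.31 (SE, FDR 0.000742). Col1a1, another, was at 4.25 to 19.2 TPM in vehicle (median 8.91) and 1.87 to 5.93 TPM at 10 nmol/kg (median 4.13), a change of -1.32 ± 0.35 (SE, FDR 0.00299). Timp1, an inhibitor of matrix proteases, was at 0.31 to 2.68 TPM in vehicle (median 1.62) and 0.05 to 0.65 TPM at 10 nmol/kg (median 0.235), a change of -2.06 ± 0.54 (SE, FDR 0.00262). The vehicle and treated values of all 3 overlapped. Fn1, fibronectin, which hepatocytes also secrete, was at 452 to 533 TPM in vehicle (median 502) and 570.3 to 707 TPM at 10 nmol/kg (median 618), a change of 0.66 ± 0.11 (SE, FDR 1.88e-05), or 0.23 (FDR 0.0427) with the length trend removed. Without Fn1 the summed level of the group was 385 to 800.3 TPM in vehicle (median 558) and 353 to 493 TPM at 10 nmol/kg (median 456). Of the endothelial markers, 5 of 16 tested rose and 3 fell (median log2 fold change 0.09), and Stab2, a sinusoidal marker, was at 19.9 to 28.4 TPM in vehicle (median 26.6) and 22.2 to 28.1 TPM at 10 nmol/kg (median 24.1). Its log2 fold change of 0.16 ± 0.08 (SE, FDR 0.102) turned to -0.26 (FDR 0.0011) with the length trend removed. The summed cholangiocyte markers were 50.1 to 189 TPM in vehicle and 41.7 to 97.3 TPM at 10 nmol/kg, and of 9 such markers 0 rose and 1 fell, or 5 without vehicle replicates 44 and 47 and 0 with the length trend removed.

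Several of the genes with the largest differences had few reads. By the rule for naming genes, the largest rise was that of Cep85l, a relative of a centrosomal protein (chr10:53273443-53379947), at 0.06 to 0.37 TPM in vehicle (median 0.15) and 1.39 to 6.76 TPM at 10 nmol/kg (median 5.33) and 10 to 47 reads in vehicle, a log2 difference of 4.08 ± 0.65 (SE, FDR 6.16e-06). Uprt, related to uracil phosphoribosyltransferases, was at 0.04 to 0.22 TPM in vehicle (median 0.08) and 0.4 to 1.3 TPM at 10 nmol/kg (median 1.1), a change of 3.23 ± 0.43 (SE, FDR 4.84e-07). Zfp445, a zinc finger protein that maintains imprints, was at 0.71 to 7.55 TPM in vehicle (median 2.46) and 11.1 to 24.6 TPM at 10 nmol/kg (median 19.7), a change of 2.68 ± 0.36 (SE, FDR 4.82e-07). Lmbrd2, Klhl11 and Lcor, a nuclear receptor corepressor, had log2 fold changes of 3.23, 2.95 and 2.72. Treated values of Lcor ran from 0.22 to 2.74 TPM, a range wider than the gap to vehicle. The largest fall was that of Cfd, which encodes complement factor D (chr10:79890853-79892655), at 5.44 to 18.7 TPM in vehicle (median 11.7) and 0.17 to 0.52 TPM at 10 nmol/kg (median 0.255) and 4 to 17 reads at 10 nmol/kg, a change of -5.39 ± 0.68 (SE, FDR 1.98e-07). Cfd is a major product of fat cells, and the fat marker Adipoq was listed at 0.08 to 0.53 TPM in vehicle and 0 to 0.1 TPM at 10 nmol/kg. The part of fat cells in this result was not tested.

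Other large falls concerned genes of diverse function. Themis, a signalling protein of T cells, was at 0.81 to 1.93 TPM in vehicle (median 1.58) and 0.07 to 0.22 TPM at 10 nmol/kg (median 0.16), a change of -3.39 ± 0.46 (SE, FDR 5.71e-07), while Cd3e, of the T cell receptor complex, was at 0.25 to 1.15 TPM in vehicle (median 0.565) and 0.29 to 0.83 TPM at 10 nmol/kg (median 0.6) with FDR 0.828. Ubd, a ubiquitin-like protein, changed by -2.94 ± 0.60 (SE, FDR 0.000159), or -3.54 without vehicle replicates 44 and 47, and Smpd3, a sphingomyelinase, by -2.83 ± 0.45 (SE, FDR 5.32e-06). Clec2h, a C-type lectin, and Anxa8, an annexin, were at no more than 0.53 and 0.25 TPM at 10 nmol/kg and at least 1.2 and 0.76 TPM in vehicle. The genes with the smallest p were of another kind, with moderate changes and small errors. Itgav, the integrin alpha V chain, had a log2 fold change of 0.90 ± 0.09 (SE, FDR 1.33e-08), Cpne3 of 0.76 ± 0.07 (SE, FDR 1.33e-08) and Fam13b of 1.19 ± 0.12 (SE, FDR 1.33e-08). Cnot6, a deadenylase, and Pds5a, a cohesin regulator, followed with 0.60 (FDR 2.05e-08) and 0.71 (FDR 2.57e-08). These 5 genes have long transcripts (4731 to 8934 bases, against a median of 3101 over all genes tested). With the length trend removed their changes were 0.26 to 1.07.

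The dose of 10 nmol/kg was compared directly with the neighbouring doses in the same fit, without the vehicle libraries entering the contrast. Against 3 nmol/kg, 92 genes were higher and 35 lower at an FDR of at most 0.05 (0.796% of those tested), and 30 in all (18 higher and 12 lower) with the length trend removed. Rarres1, a retinoic acid responsive gene, was at 92.3 ± 11.6 TPM (mean ± SD, n = 6) in vehicle, 72.9 ± 10.1 at 3 nmol/kg and 26 ± 4.59 at 10 nmol/kg, a log2 difference of -1.53 ± 0.21 (SE, FDR 0.000209) between the doses. Cyp4a12a went from 57.6 ± 32.5 to 10 ± 5.63 TPM between these doses, a log2 difference of -2.74 ± 0.53 (SE, FDR 0.0207). Slc7a2 and Ppargc1a were higher at 10 than at 3 nmol/kg by 0.77 ± 0.18 and 0.59 ± 0.13 on the log2 scale (SE, FDR 0.0326 for both). Both have long transcripts (7910 and 6464 bases), and values of these 2 differences with the length trend removed are not given here. For Pck1, Tat and Nnmt the differences of 0.54, 0.58 and 0.46 did not pass (FDR 0.0977, 0.275 and 0.466).

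Between 20 and 10 nmol/kg 5 genes were higher and 8 lower at the larger dose (0.0814%), with 1510 at an unadjusted p under 0.05. Gpc1, glypican-1, went from 18 ± 1.76 to 10.4 ± 1.47 TPM with the larger dose (mean ± SD, n = 6), a log2 difference of -0.80 ± 0.12 (SE, FDR 0.000929). Rgs16, a regulator of G protein signalling, was at 70.2 ± 17.4 and 23.7 ± 9.22 TPM, a log2 difference of -1.66 ± 0.26 (SE, FDR 0.000929). Rmdn3 and Mief2, proteins of the outer mitochondrial membrane, differed by -0.37 ± 0.07 (FDR 0.0178) and -0.31 ± 0.06 (FDR 0.0404) on the log2 scale. Against 10 nmol/kg, the 30 nmol/kg group differed in 4074 genes (25.5%), of which 2197 were higher and 1877 lower. Slc7a2 went from 114 ± 24.3 to 235 ± 20.2 TPM between 10 and 30 nmol/kg, a log2 difference of 1.11 ± 0.19 (SE, FDR 0.000114). Nnmt, Tat and Pklr differed between 30 and 10 nmol/kg by 1.19 (FDR 0.00349), 1.18 (FDR 0.00143) and -1.04 (FDR 0.000242). For Pck1, Itgav and Trib3 the differences of 0.32, 0.11 and -0.12 did not pass (FDR 0.162, 0.354 and 0.626).

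Some genes that did not pass at 10 nmol/kg against vehicle differed between 30 and 10 nmol/kg. Cyp7a1 went from 63.8 ± 26.4 to 15.9 ± 3.91 TPM between these doses (mean ± SD, n = 6), a log2 difference of -1.88 ± 0.34 (SE, FDR 0.000266). Asns was at 0.457 ± 0.288 and 3.19 ± 1.92 TPM, a log2 difference of 2.70 ± 0.73 (SE, FDR 0.00627). Scd1 was at 1987 ± 502 and 674 ± 169 TPM, a log2 difference of -1.53 ± 0.34 (SE, FDR 0.00122). Sik1, Igfbp1, Cyp3a11 and Hamp, the iron hormone hepcidin, differed by 1.41 (FDR 0.000299), 1.58 (FDR 0.000687), -2.03 (FDR 0.000136) and 1.39 (FDR 0.0123). Of the 26 de novo lipogenesis genes tested 2 were higher and 11 lower at 30 than at 10 nmol/kg, and of the 31 bile acid genes 2 were higher and 9 lower. These counts are to be read beside the 2197 higher and 1877 lower of all 15964 genes tested in this contrast.

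**Figure D5:**
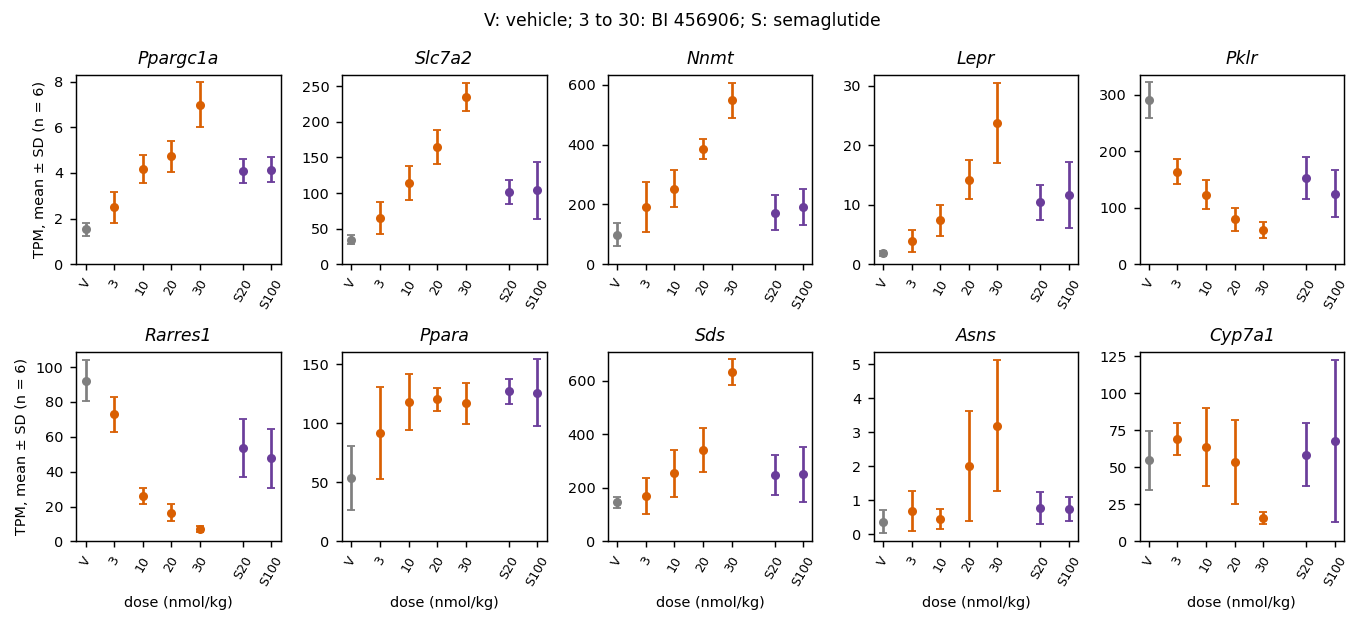
TPM (mean ± SD of 6 mice) of 10 genes in vehicle (V, grey), BI 456906 at 3, 10, 20 and 30 nmol/kg (orange) and semaglutide at 20 and 100 nmol/kg (S20 and S100, purple). Slc7a2 stood at 34.7, 114 and 235 TPM in vehicle, at 10 and at 30 nmol/kg, and Cyp7a1 at 54.6, 63.8 and 15.9 TPM.

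The semaglutide groups were dosed at 20 and 100 nmol/kg, so that no dose matches 10 nmol/kg, and all comparisons with vehicle share the same 6 vehicle mice. The levels are given side by side only. Ppargc1a was at 4.17 ± 0.63 TPM (mean ± SD, n = 6) with BI 456906 at 10 nmol/kg and at 4.08 ± 0.52 and 4.14 ± 0.54 TPM with semaglutide at 20 and 100 nmol/kg. Nnmt was at 253 ± 61.4 TPM beside 173 ± 57 and 192 ± 60.8 TPM, and Pklr at 123 ± 25.9 TPM beside 153 ± 36.6 and 125 ± 41.1 TPM. Rarres1 was at 26 ± 4.59 TPM beside 53.7 ± 16.5 and 47.6 ± 17.1 TPM, and Cyp4a12a at 10 ± 5.63 TPM beside 51.3 ± 24 and 32.4 ± 17.8 TPM. Against vehicle, 3674 of the 15964 genes tested rose and 3744 fell with semaglutide at 20 nmol/kg, and 3836 and 3851 at 100 nmol/kg. The length trend was not removed for these counts.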

How the data were processed

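Liver RNA of 12 mice (6 vehicle, 6 BI 456906 at 10 nmol/kg) was analysed within the fit of all 42 liver libraries. The submitters' processing notes name STAR 2.5.2b, RSEM 1.3.0, featureCounts 1.5.1 and builds mm10 and GRCm38. The paper's and the labels' descriptions of kit and sequencer differ, so strandedness is uncertain. The deposited read table holds a scaled signal, in which the authors had divided the reads of each gene by 1 factor per library. Dividing by the smallest step gave whole reads for 100% of the values (within 0.01). Levels are the TPM deposited by the authors, which are relative to each library. TPM and read values can give different folds.

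The deposited signal was tested with limma/voom (limma 3.58.1 and edgeR 4.0.16 in R 4.3.3) with TMM scaling, filterByExpr, a pseudocount of 0.5, 7 groups and Benjamini-Hochberg adjustment over 15964 genes, in which called means a log2 fold change of at least 1 in size and an FDR of at most 0.05. The quasi-likelihood test of edgeR on recovered reads gave 6039 genes at an FDR of at most 0.05, and DESeq2 1.42.0 was a further alternative. The procedure was tested on simulated data. Symbols and transcript lengths are from GENCODE M21 (48348 of 48794 identifiers matched). The length trend was removed by lowess over log2 length in each library, an alternative chosen after the data were seen, as was leaving out vehicle replicates 44 and 47. Other alternatives were other scalings, filters and pseudocounts, quality weights, the 2 groups alone and leaving out each library.

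The libraries were taken by their labels, and this comparison and the gene lists were chosen with earlier results of these data known. Named genes are the 12 largest rises and 12 largest falls among called genes with non-overlapping TPM and a mean of at least 1 TPM in a group, the key members and the 3 smallest p of each list, the 5 smallest p of all, and the 4 smallest p of each dose contrast. Not all are printed, and some are not reported here. Libraries of a group differed beyond counting error (over 30 pairs, chi-square was at least 17.01 times its degrees of freedom), and p-values measure the spread between single mice.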

Additional observations from a re-analysis of the deposited data

Results flagged for a closer look

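For the genes given with values in the text, 280 sets of 6 TPM values (vehicle or 10 nmol/kg) were examined for a highest or lowest library far from the rest by Dixon's criterion, and 18 contained one. Chance alone gives such a value in about 1 in 20 sets. No explanation was weighed for any of them.

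In the 10 nmol/kg group, treated replicate 57 stood above the others for Fasn (168 TPM, the nearest 88) and Fdps (175 TPM, the nearest 109.8). Treated replicate 55 was lowest for Uprt (0.4 TPM, the nearest 0.98) and Arntl (11.1 TPM, the nearest 12.7) and highest for Ren1 (0.79 TPM, the nearest 0.26) and Cox4i1 (1053 TPM, the nearest 993). Treated replicate 58 was highest for Sik1 (13.6 TPM, the nearest 8.52) and Selenbp2 (44.9 TPM, the nearest 18). Ass1 was highest in treated replicate 56 (4678 TPM, the nearest 3830.4) and Isg15 in treated replicate 59 (19.8 TPM, the nearest 11.8).

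In the vehicle group, replicate 48 was lowest for Hgf (1.16 TPM, the nearest 2.48) and Pds5a (12 TPM, the nearest 13.9). Replicate 45 was lowest for Mat1a (1616 TPM, the nearest 2023) and Cyp39a1 (12.7 TPM, the nearest 15.4), and replicate 44 was highest for Klhl11 (0.32 TPM, the nearest 0.21) and Aldh1l2 (0.15 TPM, the nearest 0.08). Replicate 43 was lowest for Scd1 (1039 TPM, the nearest 1629.5) and highest for Nr1d1 (3.2 TPM, the nearest 2.45).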

How the results depend on the processing

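The counts of genes higher at an FDR of at most 0.05 in limma/voom (3095), and of those that differed between 30 and 10 nmol/kg (4074), stayed within 1.5 times under every alternative run. Requiring 10 reads in every library left 177 genes called higher and 158 lower, a log2(TPM + 1) scale 98 and 75, and a log2(TPM + 0.1) scale 176 lower. Without vehicle replicates 44 and 47 together, 460 genes were called lower. The genes lower at an FDR of at most 0.05 numbered 1314 on the log2(TPM + 1) and 1249 on the log2(TPM + 0.1) scale. On the first of these scales 12 of 27 lipid droplet and 30 of 57 respiratory chain genes fell. The dose contrasts with few genes moved most. Between 10 and 3 nmol/kg there were 203 genes with scaling by library size, 19 without a filter, 375 with DESeq2, 8 with the 2 groups fitted alone, 328 with sample quality weights and 30 with the length trend removed, and between 20 and 10 nmol/kg 5 without a filter, 119 with DESeq2, 4 with the 2 groups alone and 20 with quality weights. The cause was not tested. Leaving out 1 library at a time gave 306 to 454 genes called higher, 253 to 341 called lower, and 2711 to 3241 higher and 2277 to 2953 lower at an FDR of at most 0.05. Of 244 tested genes covered by the naming rule, 15 lost and 13 gained a call without some single library. With the length trend removed 19 lost and 9 gained a call and Stab2 reversed (-0.26, FDR 0.0011, against 0.16, FDR 0.102). Without vehicle replicates 44 and 47, 8 lost and 8 gained one, and on the log2(TPM + 1) scale 19 lost and 6 gained one. Depth limits genes at or under 3 reads in every library of a group, for which no fold was given. No paired analysis was possible because the library numbers are not shared between groups.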

Other observations

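Further gene groups at 10 nmol/kg against vehicle are given here by their counts at an FDR of at most 0.05 (limma/voom), to be read beside 19.4% of all genes tested that rose and 18.1% that fell. Of the complement and coagulation genes 7 of 46 tested rose and 5 fell (median log2 fold change 0.02), and without vehicle replicates 44 and 47 there were 11 that rose and 6 that fell. F5, coagulation factor V, was at 54.7 to 107 TPM in vehicle (median 75.2) and 111 to 147 TPM at 10 nmol/kg (median 134), a log2 fold change of 0.67 ± 0.10 (SE, FDR 2.05e-06), or 0.29 with the length trend removed, and C3, the central complement component, was at 1349 to 1816 TPM in vehicle (median 1579.8) and 2103 to 2751 TPM at 10 nmol/kg (median 2419), a change of 0.59 ± 0.10 (SE, FDR 7.91e-06). Treated values of both lay above all vehicle values. Of the interferon-stimulated genes 3 of 31 tested rose and 3 fell (median log2 fold change -0.11), with the length trend removed 3 rose and 0 fell (median -0.06), and Isg15, a ubiquitin-like product of interferon signalling, was at 7.85 to 18.7 TPM in vehicle (median 12.6) and 9.44 to 19.8 TPM at 10 nmol/kg (median 9.69) with FDR 0.419. Of the cell cycle genes 1 of 33 tested rose and 5 fell (median log2 fold change -0.15), with the length trend removed 4 rose and 5 fell (median -0.15), and with edgeR 4 rose and 6 fell. Cdc20, an activator of mitotic proteolysis, changed by -0.95 ± 0.25 (SE, FDR 0.00288) at less than 1 TPM in all 12 libraries, and Mki67, a marker of dividing cells, did not pass (FDR 0.811).

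Of the genes for iron and hepcidin 3 of 22 tested rose and 5 fell (median log2 fold change -0.10). Fth1, the ferritin heavy chain, was at 2741 to 3739 TPM in vehicle (median 3509) and 2097 to 2843 TPM at 10 nmol/kg (median 2568), a change of -0.53 ± 0.09 (SE, FDR 1.05e-05) with overlapping values. Slc39a14, a zinc and iron importer, was at 43.8 to 88 TPM in vehicle (median 68.3) and 102 to 140 TPM at 10 nmol/kg (median 126), a change of 0.65 ± 0.12 (SE, FDR 2.71e-05) without overlap, and Hamp did not pass (FDR 0.198). Of the renin-angiotensin genes 5 of 9 tested rose and 1 fell (median log2 fold change 0.20), and with the length trend removed 4 rose and 2 fell (median 0.33). Agt was among those that rose, and its call was lost in 5 of 12 fits that each left out 1 library (FDR 0.0653 to 0.0923). Agtr1a, the main angiotensin receptor of liver, changed by 0.20 ± 0.06 (SE, FDR 0.00794), or 0.33 with the length trend removed, and Mas1, a receptor of angiotensin fragments, by -2.35 ± 0.51 (SE, FDR 0.000334) at 8 to 48 reads in vehicle and 1 to 17 reads at 10 nmol/kg. Ren1 had 0 to 2 reads in vehicle and 1 to 12 reads at 10 nmol/kg, too few for a fold change, although it is counted among the 4 that rose with the length trend removed. Of the hepatocyte markers 6 of 17 rose and 4 fell, with the length trend removed 7 rose and 2 fell, and of the markers of fat, muscle, pancreas and blood 0 of 6 rose and 1 fell. Hnf4a, a nuclear receptor of hepatocyte identity, was at 136 to 201 TPM in vehicle (median 192) and 228 to 321 TPM at 10 nmol/kg (median 258), a change of 0.45 ± 0.12 (SE, FDR 0.00425) without overlap.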
